A study of Mus musculus with 4 samples.

Results

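The mouse Cyp2a genes encode cytochrome P450 enzymes of the endoplasmic reticulum, and 4 of them were examined here: Cyp2a4, Cyp2a5, Cyp2a12 and Cyp2a22. They were chosen by name, through the Entrez gene numbers in the transcript tables, and are 4 of the 17543 genes listed in any liver. RNA of whole liver was sequenced from C57BL/6 mice, 2 livers of the wild type (WT) and 2 of animals with the genotype Ezh2(K307R/K307R), a point mutation on both copies of the gene for the histone H3 methyltransferase of the Polycomb complex PRC2. The labels give no treatment, sex, age or hour of collection nor whether each liver is from its own animal, and every p value here measures only how far these samples spread, which may be technical. The comparison asks which transcripts differ in level between the genotypes.

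Cytochromes P450 are haem enzymes that insert oxygen into their substrates with electrons passed on by the reductase POR. Cyp2a5 hydroxylates coumarin and oxidises nicotine, as its human relative CYP2A6 does, and is a pericentral gene of the liver lobule. Cyp2a4 is a steroid 15-alpha-hydroxylase known for higher levels in female than in male mouse liver, and Cyp2a12 hydroxylates testosterone at another carbon. Transcription of Cyp2a4 and Cyp2a5 in mouse liver is known to follow the day through DBP, a clock output factor.

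All members lie on chromosome 7 within 729.6 kb, among genes of the Cyp2b, Cyp2f and Cyp2g families (GRCm38.p6, the assembly also called mm10). Cyp2a4 (Entrez gene 13086) runs from 26307192 to 26315088, Cyp2a5 (13087) from 26835339 to 26843264 and Cyp2a12 (13085) from 27029090 to 27036818, each on the plus strand. Cyp2a22 (233005) runs from 26931631 to 26939413 on the minus strand. Each is protein-coding, has 9 exons in GENCODE M21 and was represented by 1 RefSeq transcript in the tables. Cyp2a12 overlaps the long non-coding gene Gm51444 over 3022 bases and Cyp2a22 the pseudogene LOC115486453 over 4033 bases; these were not analysed here, and no source used here gives the strand setting of the counting.

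The members form 2 sets of near copies, which decides how far each can be measured alone. In GENCODE M21 the coding parts of Cyp2a4 and Cyp2a5 are 98.4% identical, with 23 substitutions over 1482 bases, and those of Cyp2a12 and Cyp2a22 are 97.0% identical, with 45 over 1476 bases. Between the sets the identity is 74.9% to 76.0%. The stretch of 60 coding bases in which Cyp2a4 and Cyp2a5 differ most is shown because only reads over such bases can separate them, with the differing bases in capitals (coding bases 596 to 655, counted from the first base of the start codon).
Cyp2a4: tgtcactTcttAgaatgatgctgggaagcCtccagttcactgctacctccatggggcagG
Cyp2a5: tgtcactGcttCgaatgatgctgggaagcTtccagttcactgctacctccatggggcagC
It holds 4 substitutions, among them C625T (the base of Cyp2a4 first), the first base of codon 209. The residue at this place is known from directed mutagenesis to govern whether the enzyme prefers a steroid or coumarin.

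The corresponding stretch for Cyp2a12 and Cyp2a22 (coding bases 1277 to 1336) holds 6 differences, in capitals.
Cyp2a12: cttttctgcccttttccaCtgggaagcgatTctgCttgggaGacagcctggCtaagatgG
Cyp2a22: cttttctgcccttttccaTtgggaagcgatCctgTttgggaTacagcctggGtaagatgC
Of all windows of 50 bases along a member's GENCODE transcript, 38.8% for Cyp2a4, 40.8% for Cyp2a5, 27.5% for Cyp2a12 and 25.7% for Cyp2a22 occur letter for letter in another gene's transcript. With windows of 100 bases the shares are 11.2%, 14.4%, 6.8% and 6.4%. The other genes are the partner and, for Cyp2a4 and Cyp2a5, also the pseudogene Cyp2a21-ps and, for Cyp2a4 with windows of 50 bases, the long non-coding gene Gm42375. No source used here gives the read length.

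The counts themselves show the same 2 sets. RSEM splits a read that matches several transcripts, which leaves fractions of a read, and the 16 values of single members were all fractional. The expected counts of Cyp2a4 and Cyp2a5 nevertheless added up to whole reads, within 0.01 read, in all 4 livers: 10331 and 35606 in the WT livers and 38082 and 16198 in the mutant livers. Those of Cyp2a12 and Cyp2a22 did so too, with 14968 and 14673 reads in WT and 17931 and 17919 in the mutants. Sums across the sets, such as Cyp2a4 with Cyp2a12, were fractional in every liver. Each member is therefore given below on its own and each set also as a sum, and single members remain uncertain by the reads divided within a set.

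The promoters are near copies as well. Over the 250 bases before the RefSeq start site, Cyp2a4 and Cyp2a5 are 97.6% identical and Cyp2a12 and Cyp2a22 82.8%, against 48.1% to 51.1% between the sets. Bases -100 to -21 before the start are shown for each gene on its own strand, 5′ to 3′, from RefSeq's GRCm38.p6, because members with almost the same promoter did not share 1 pattern of levels over the livers. They lie at chr7:26307092-26307171 (Cyp2a4, plus), chr7:26835239-26835318 (Cyp2a5, plus), chr7:27028990-27029069 (Cyp2a12, plus) and chr7:26939407-26939486 (Cyp2a22, minus). For Cyp2a22 the start in RefSeq's promoter table is 26939386, which lies 27 bases inside the outer end of the gene given above; for the other 3 it is the end of the gene. Capitals mark matches to the motifs named below.
Cyp2a4: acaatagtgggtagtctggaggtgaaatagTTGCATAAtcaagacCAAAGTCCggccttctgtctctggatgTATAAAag
Cyp2a5: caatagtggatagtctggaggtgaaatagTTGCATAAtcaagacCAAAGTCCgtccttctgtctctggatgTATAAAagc
Cyp2a12: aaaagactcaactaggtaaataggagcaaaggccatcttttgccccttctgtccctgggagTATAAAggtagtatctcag
Cyp2a22: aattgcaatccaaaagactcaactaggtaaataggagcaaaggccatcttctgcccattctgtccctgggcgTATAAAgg
The motifs were chosen after the sequences were seen and searched on both strands over the 250 bases before the start of 27025 genes, without overlap between different motifs in these 4. The TATA box TATAAA is in all 4, against 12.97% of all promoters. CAAAGTCC, part of a binding site of the liver factor HNF4A, is in Cyp2a4 and Cyp2a5, against 1.22%, and so is the C/EBP-type motif TTGCNNAA, against 9.55%. The D-box of DBP, searched as TTACGTAA or TTATGTAA (0.96% of promoters), the E-box CACGTG (6.05%) and the STAT motif TTCNNNGAA (7.18%) have no match in any of the 4, which says only that these letters are not in this window.

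Total expected counts per liver ranged from 18602928 to 20044832. Ezh2 itself was at 3.36 and 3.93 CPM in the WT livers and at 3.45 and 2.56 CPM in the mutant livers, where CPM are counts scaled to library size with TMM factors, and gene counts do not show its point mutation. The hepatocyte markers Alb, Apoa1, Ttr, Trf, Ahsg and Fgb summed to 159185 to 160261.2 CPM in the WT livers and 143740.9 to 146385.6 CPM in the mutant livers. The sum was lower in both mutants without overlap, and of all single genes tested 48.6% did not overlap in either direction. By edgeR or DESeq2 0 of the 6 passed the test, nor had any an unadjusted p under 0.05. Sex-chromosome transcripts separated the genotypes: Xist, the X-linked RNA of female cells, was at 0.284 to 0.347 CPM in WT and 327 to 573 CPM in the mutants, and the Y-linked Ddx3y, Eif2s3y, Kdm5d and Uty had reads only in the WT livers. Genotype and sex-chromosome pattern thus coincided in all 4 livers and cannot be told apart in any comparison below. That holds for every call, that of Cyp2a22 among them, and bears also on Cyp2a4 as a gene known for a sex difference.

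Levels per transcript length, as the authors' FPKM, put Cyp2a22 far below the other 3 members in every liver. Cyp2a4 was at 128 and 814 FPKM in the WT livers and 594 and 239 FPKM in the mutant livers. Cyp2a5 was at 181 and 219 FPKM in WT and 590 and 261 FPKM in the mutants. Cyp2a12 was at 453 and 419 FPKM in WT and 520 and 518 FPKM in the mutants. Cyp2a22 was at 7.60 and 14.2 FPKM in WT and 42.1 and 40.1 FPKM in the mutants. The ranges of Cyp2a4, Cyp2a5 and Cyp2a12 over the livers overlapped, so these 3 have no fixed order. Cyp2a12 led the family in WT replicate 1 and mutant replicate 2, and Cyp2a4 led it in WT replicate 2 and, narrowly, in mutant replicate 1. Among the 80 Cyp genes listed in WT replicate 2, Cyp2a4 ranked 3 by FPKM, and among the 78 in WT replicate 1 it ranked 23. Cyp2a12 ranked 8 to 13 in the 4 livers and Cyp2a22 ranked 39 to 45.

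**Figure D1:**
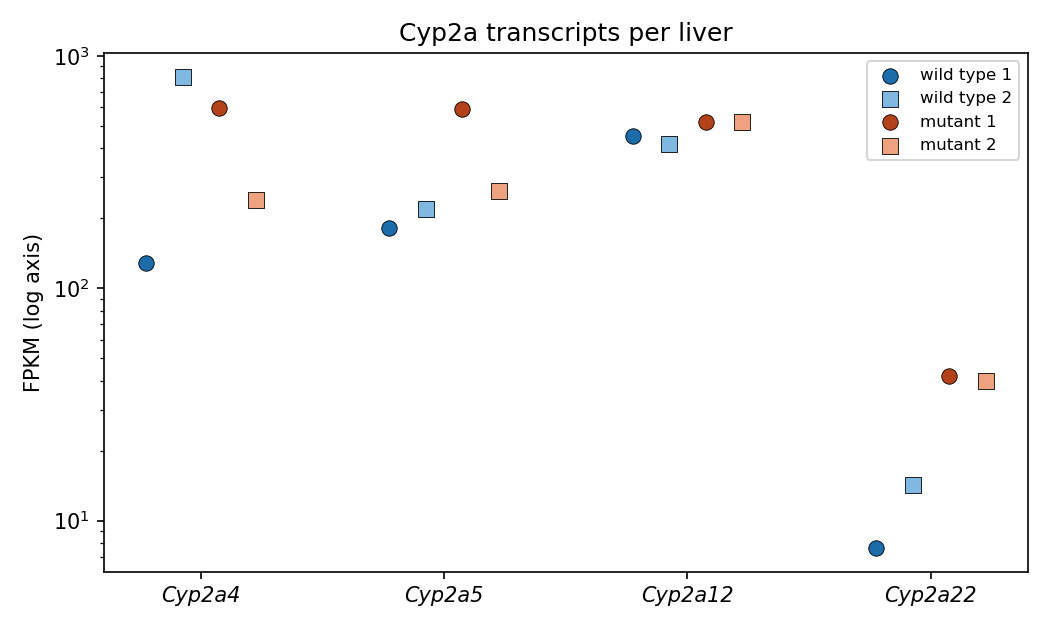
FPKM of each Cyp2a member (log axis) in the 4 livers, circles for replicate 1 and squares for replicate 2, blue for wild type and orange-brown for mutants. Cyp2a22 lies below the other members in every liver and higher in both mutant livers, whereas the WT livers lie at opposite ends for Cyp2a4, at 128 and 814 FPKM.

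Cyp2a22 was the member that rose in the mutant livers, which were also the livers with high Xist. It had 328 and 636 reads in the WT livers and 1749 and 1678 in the mutant livers, which is 19.0 and 30.1 against 92.8 and 85.8 CPM. Both mutant livers lay above both WT livers, and 48.6% of all genes tested were likewise without overlap, in either direction. The mean went from 24.5 ± 7.87 to 89.3 ± 4.92 CPM (SD, n = 2 each), a 3.63-fold rise (log2 fold change 1.86, SE 0.25, 95% interval 1.28 to 2.44), with an edgeR quasi-likelihood adjusted p of 0.0118 over 12837 genes. Of the 4 members, which all had enough reads to be tested, 1 was thus called higher and 0 lower. Over all genes tested, 1.39% were called higher, 1.47% lower and 2.86% in either direction. The call held without any one of the livers, with log2 fold changes from 1.57 to 2.23. At an unadjusted p under 0.05 Cyp2a5 also passed (0.0287), as did 8.50% of all genes in the higher and 8.31% in the lower direction, 16.8% together. By DESeq2 1 member was called, as by edgeR, against 5.95% of all genes (2.94% higher, 3.01% lower).

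Because Cyp2a12 holds many more reads than Cyp2a22, a small error in dividing their reads would weigh on Cyp2a22. Its share of the 2 genes' expected counts was 2.19% (exact Clopper-Pearson 95% interval 1.96 to 2.44) and 4.33% (4.01 to 4.68) in the WT livers. In the mutant livers it was 9.76% (9.32 to 10.2) and 9.37% (8.94 to 9.80). These intervals cover counting error only. The shares did not overlap between genotypes, and the exact two-sided permutation p over livers was 0.333, the smallest that 2 against 2 livers can give. How the division of reads bears on the rise of Cyp2a22 was not tested.

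Cyp2a12, the partner of Cyp2a22, was the steadiest member. It had 847 and 664 CPM in the WT livers and 858 and 831 CPM in the mutant livers, and the genotypes overlapped. The log2 fold change was 0.16 (95% interval -0.42 to 0.74, edgeR adjusted p = 0.806), which leaves room for folds between 0.749 and 1.67. Cyp2a12 and Cyp2a22 summed were at 866 and 695 CPM in WT and 951 and 917 CPM in the mutants (log2 fold change 0.26, 95% interval -0.32 to 0.83, edgeR adjusted p = 0.663). The sum did not overlap between genotypes, as was the case for 48.6% of all genes tested, and it did not pass the test.

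Cyp2a5 was about level in WT and divided in the mutants. It had 352 and 362 CPM in the WT livers against 1016 and 436 CPM in the mutant livers. Both mutant livers lay above both WT livers, but mutant replicate 2 by little, and 48.6% of all genes tested did not overlap in either direction. The mean was 357 ± 6.71 CPM in WT and 726 ± 410 CPM in the mutants (SD, n = 2 each), with a log2 fold change of 1.02 (SE 0.38, 95% interval 0.14 to 1.91) and an edgeR adjusted p of 0.231. The log2 fold change was 0.29 without mutant replicate 1 and 1.51 without mutant replicate 2 (edgeR adjusted p = 0.053).

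Cyp2a4 differed more between livers of 1 genotype than between genotypes. It had 4239 and 27959 reads in the WT livers and 18928 and 7669 in the mutant livers, or 245 and 1323 against 1004 and 392 CPM. The highest and the lowest value both came from WT, and both mutant values lay between them. The mean was 784 ± 762 CPM in WT and 698 ± 433 CPM in the mutants (SD, n = 2 each), with a log2 fold change of -0.17 (SE 0.71, 95% interval -1.82 to 1.48, edgeR adjusted p = 0.937). Without WT replicate 2 the log2 fold change was 1.51 (edgeR adjusted p = 0.0903) and without WT replicate 1 it was -0.92 (0.277), so the direction for Cyp2a4 rests on which WT liver is kept.

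The difference of Cyp2a4 between the WT livers was 5.40-fold, and only 27 of 7389 genes with a mean of at least 10 CPM differed more between these livers on the log2 scale. The median gene differed by 0.21, and Cyp2a4 by 2.43. In the mutants Cyp2a4 differed 2.56-fold and Cyp2a5 2.33-fold, both higher in replicate 1, more than 99.1% and 98.7% of genes. Cyp2a5 did not follow Cyp2a4 in WT, where it differed 1.03-fold, less than most genes. Cyp2a12 differed 1.27-fold in WT and 1.03-fold in the mutants, and Cyp2a22 1.59-fold and 1.08-fold.

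**Figure D2:**
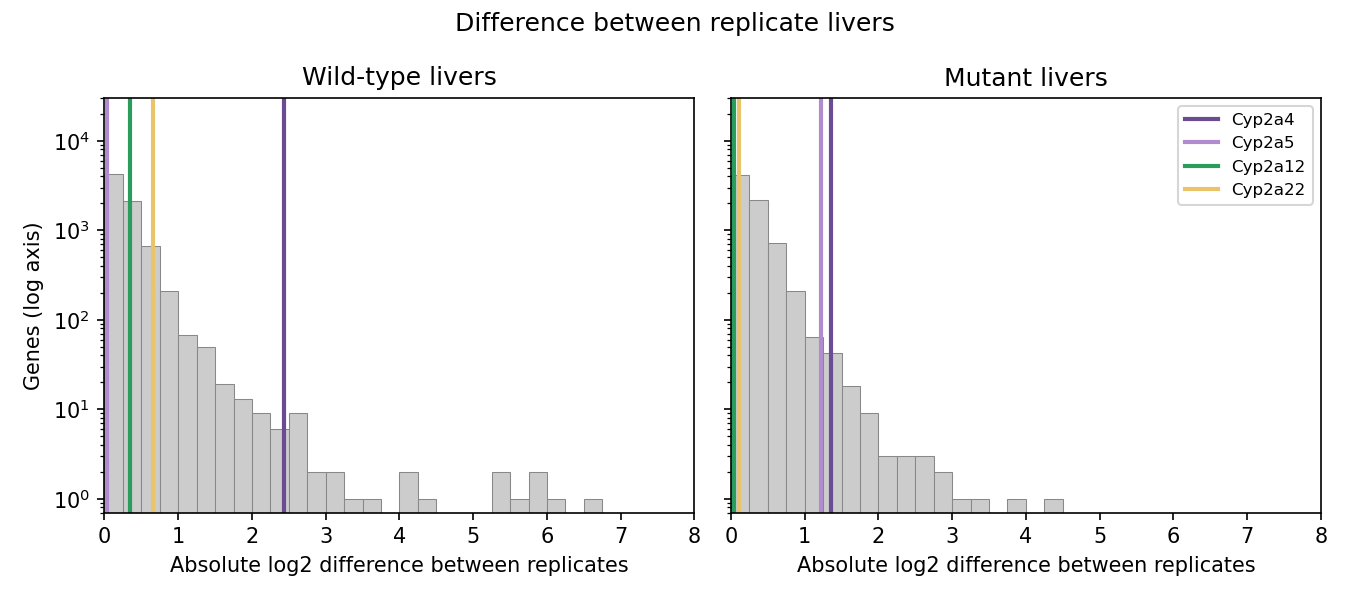
Number of genes (log axis) by the absolute log2 difference between the 2 WT livers (left) and the 2 mutant livers (right), over 7389 genes with a mean of at least 10 CPM, with coloured lines at the members. Cyp2a4 lies far out in both panels, at 2.43 in WT, while Cyp2a5 lies far out only in the mutant panel.

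As Cyp2a4 and Cyp2a5 may trade reads, their sum was examined too, and it also varied between livers of 1 genotype, though less than Cyp2a4 in WT. It was 598 and 1686 CPM in the WT livers and 2020 and 829 CPM in the mutant livers, so that the genotypes overlapped. The log2 fold change was 0.32 (SE 0.55, 95% interval -0.94 to 1.58, edgeR adjusted p = 0.822). The WT livers differed 2.82-fold in the sum and the mutant livers 2.44-fold. Cyp2a4 made up 41.0% of the sum (exact 95% interval 40.1 to 42.0) in WT replicate 1 and 78.5% (78.1 to 79.0) in replicate 2. In the mutants its share was 49.7% (49.2 to 50.2) and 47.3% (46.6 to 48.1), between the WT values (exact permutation p = 1, two-sided).

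The whole family held 1464 and 2380 CPM in the WT livers and 2972 and 1745 CPM in the mutant livers. The genotypes overlapped, with a log2 fold change of 0.30 (SE 0.36, 95% interval -0.53 to 1.12, edgeR adjusted p = 0.748). Without WT replicate 1 the log2 fold change was -0.01 and without mutant replicate 1 it was -0.15, against 0.68 and 0.63 without the other livers. By FPKM the family held 0.131% and 0.263% of the total in WT and 0.309% and 0.197% in the mutants. Its makeup changed from liver to liver: Cyp2a12 gave 57.9% and 27.9% of the family's counts in WT and 28.9% and 47.6% in the mutants, and Cyp2a4 gave 16.8% and 55.6% in WT and 33.8% and 22.5% in the mutants. Cyp2a5 gave 24.1% and 15.2% in WT and 34.2% and 25.0% in the mutants. Cyp2a22 gave 1.30% and 1.26% in WT and 3.12% and 4.92% in the mutants.

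**Figure D3:**
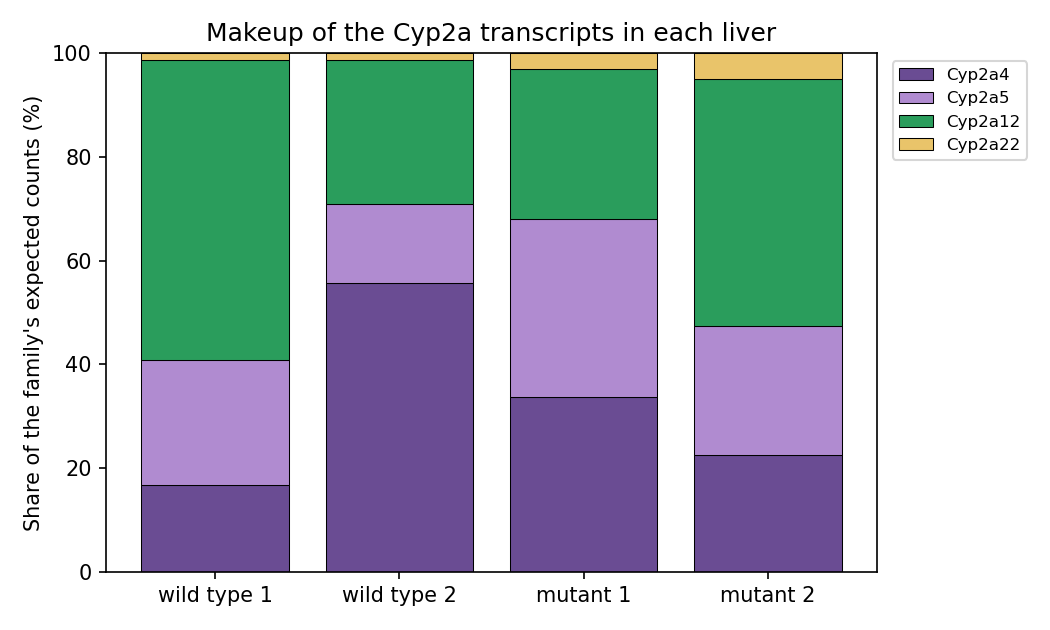
Share of each member (percent, stacked to 100) in the family's expected counts in each liver. Cyp2a12 is the largest part in WT replicate 1 and mutant replicate 2, Cyp2a4 is at 55.6% in WT replicate 2, and Cyp2a22 is the thin top part, wider in both mutant livers.

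**Figure D4:**
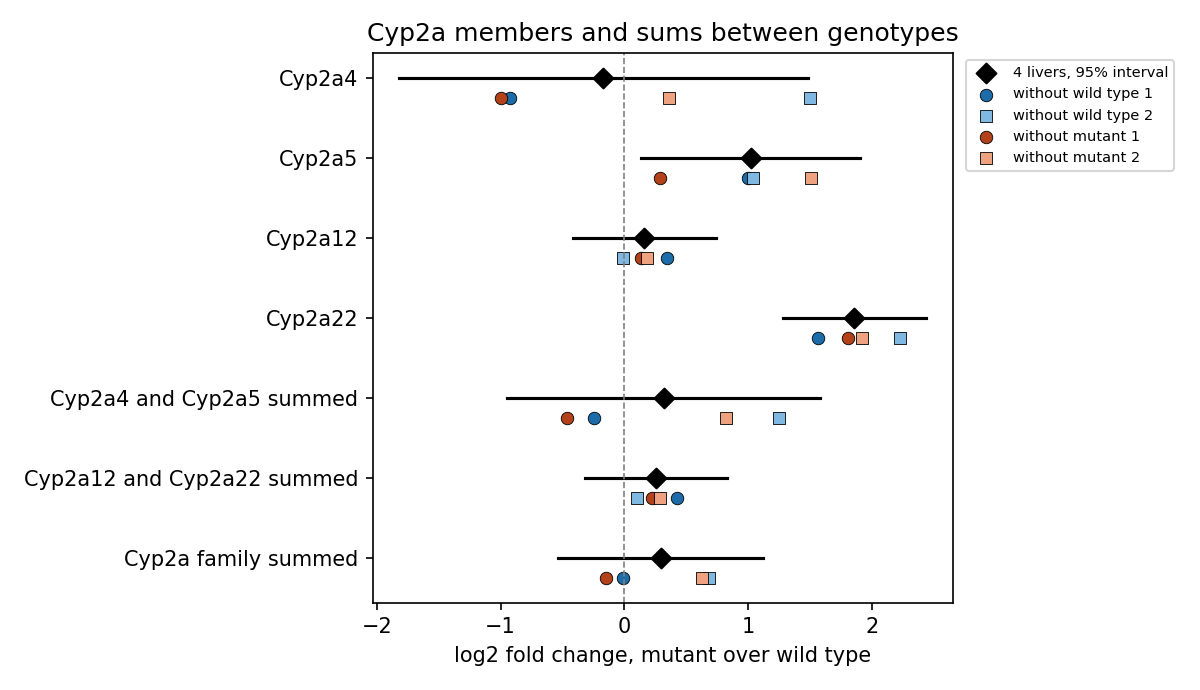
Log2 fold change of mutant over wild type for each member and sum (diamonds, with 95% intervals from edgeR's fit on 4 livers) and the value with each liver left out (small symbols). The interval of Cyp2a22 and its values without any one of the livers lie above 0; those of Cyp2a4 fall on both sides of 0.

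The genes around the members were compared next. The list holds 9 other Cyp2 genes of the same cluster, of which 7 were tested: 5 rose and 0 fell (all genes: 1.39% and 1.47%), with a median log2 fold change of 3.25 against 0.01 over all genes. Cyp2b13 was at 0 and 0.615 CPM in WT and 170 and 322 CPM in the mutants, and Cyp2b9 at 2.60 and 28.5 against 642 and 565 CPM. Cyp2b10, a target of the drug-sensing receptor CAR, was at 2.08 and 6.25 against 50.5 and 29.9 CPM. All 3 are steroid- or drug-metabolising P450 genes, and for their rises too genotype and sex-chromosome pattern cannot be told apart. Cyp2b23 had 0 reads in both WT livers and 17.5 and 23.8 in the mutants, and its call was lost without mutant replicate 1 (edgeR adjusted p = 0.0638) or 2 (0.115). Reads of the Cyp2b genes may be divided between close copies too. In this list Cyp2s1 and Cyp2f2, near the ends of the stretch, did not pass the test (edgeR adjusted p = 0.489 and 0.517).

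Cyp2g1, which lies next to Cyp2a5 and is known from olfactory tissue, was at 3.82 and 4.78 CPM in WT and 32.2 and 11.4 CPM in the mutants (log2 fold change 2.34, edgeR adjusted p = 0.0427). Like Cyp2a5 it was near level in WT and higher in mutant replicate 1 than in replicate 2, and its call was lost without mutant replicate 1 (log2 fold change 1.40, edgeR adjusted p = 0.084). Cyp2b9, the Cyp2 gene nearest to Cyp2a4, was higher in WT replicate 2 than in replicate 1, as Cyp2a4 was. Its log2 fold change was 5.27, and 7.85 without WT replicate 2 and 4.40 without replicate 1. For Cyp2b10 the value was 3.25, and 4.26 without WT replicate 2. The count of rises among the neighbours was 3 with the replicate number as a block, on log2(FPKM + 1) and with a mean of at least 1 CPM. It was 2 on log2(FPKM + 0.1). The FPKM and CPM filters left out Cyp2b23. Cyp2g1 was called in none of these fits, nor by limma-voom (adjusted p = 0.0936).

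**Figure D5:**
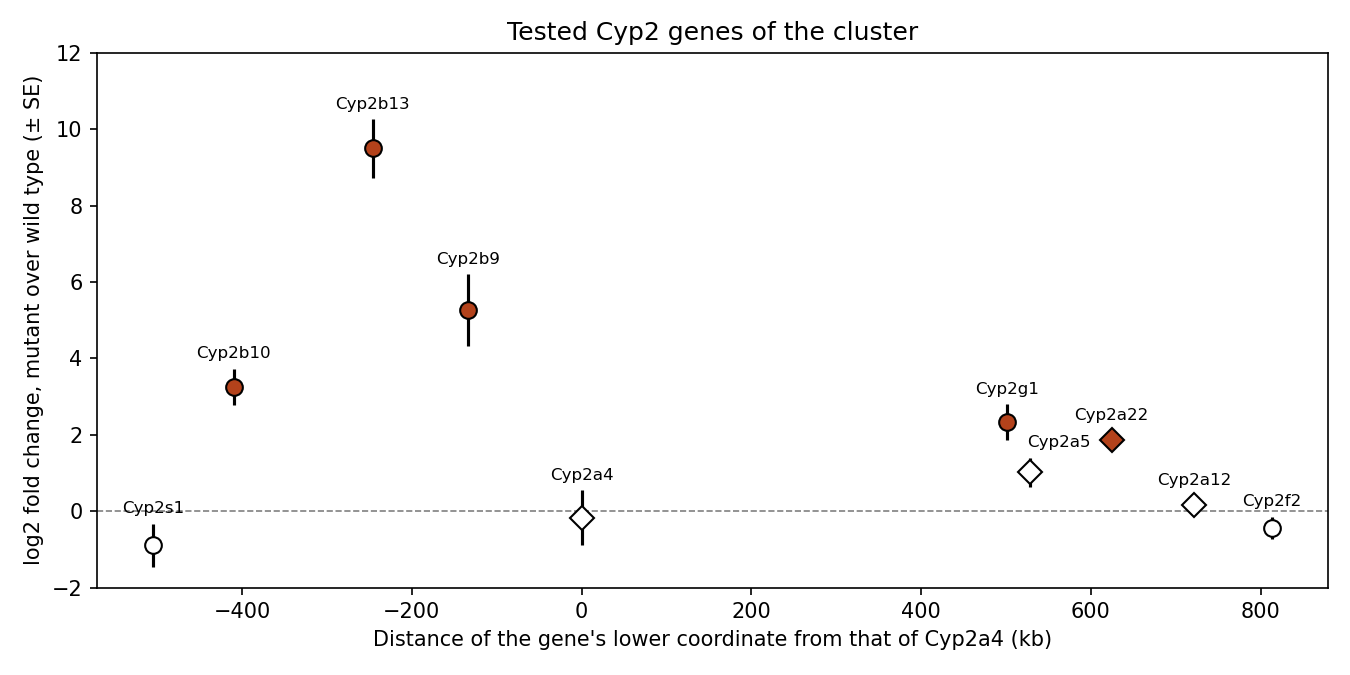
Log2 fold change (mutant over wild type, ± SE from edgeR) of tested Cyp2 genes along the cluster, by distance in kb from the lower coordinate of Cyp2a4, with diamonds for Cyp2a members and filled symbols for an adjusted p under 0.05. Cyp2b13, Cyp2b9 and Cyp2b10 at one side of Cyp2a4 and Cyp2g1 and Cyp2a22 at the other are filled, while Cyp2a4, Cyp2a5 and Cyp2a12 are open; Cyp2b23, with 0 WT reads, is not drawn.

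Factors known to act on Cyp2a genes were then examined, from a list of 15, of which 1 rose and 0 fell (median log2 fold change 0.09). Over all genes 1.39% rose and 1.47% fell. Nr1i3, which encodes CAR, was at 53.3 and 50.1 CPM in WT and 94.2 and 143 CPM in the mutants (log2 fold change 1.20, edgeR adjusted p = 0.0441). The call was lost without WT replicate 2 (log2 fold change 1.15) or mutant replicate 2 (0.87). It was also lost by limma-voom (adjusted p = 0.0539), on either FPKM scale and with the replicate block (edgeR adjusted p = 0.0519). Cebpb, a C/EBP factor, was at 105 and 108 against 32.6 and 55.6 CPM (log2 fold change -1.27, edgeR adjusted p = 0.0515). With RLE or upper-quartile scaling, by DESeq2, with the replicate block and without a filter, 1 gene of the list was called lower. Of all 12837 genes, 196, 178, 386 and 181 were called lower in the first 4 of these fits. Without a filter it was 419 of 17483 genes. Hnf4a, which binds the Cyp2a5 promoter, had a log2 fold change of 0.29 (0.636) and Nfe2l2, which encodes the oxidative stress factor NRF2, 0.40 (0.390). Of 8 CAR and PXR targets 1, Cyp2b10, rose and 0 fell by edgeR. By DESeq2, against 2.94% of all genes, or with total-count scaling 3 were called higher. At an unadjusted p under 0.05 were 4 of the targets, all higher, against 16.8% of all genes in either direction. Others had log2 fold changes below 0 without a call: Cyp3a11 (-0.87, edgeR adjusted p = 0.415), Cyp2c55 (-1.09, 0.301) and Abcc2 (-0.31, 0.558). The summed level of the 8 targets overlapped between genotypes, at 6000 to 7035 CPM in WT and 4791 to 7161 CPM in the mutants. Of 10 tested NRF2 targets 0 rose and 1 fell, the glutathione transferase gene Gsta1 (log2 fold change -4.40), which was no longer called when mutant replicate 1 (edgeR adjusted p = 0.0624) or 2 (0.088) was left out, with values of -5.17 and -2.64 without WT replicates 1 and 2.

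Of the 4 genes for D-box binding factors, 1 rose and 0 fell by edgeR, against 1.39% and 1.47% of all genes (median log2 fold change -0.78). DESeq2 called 1 higher and 1 lower (all genes: 2.94% and 3.01%), and 3 had an unadjusted p under 0.05 (all genes: 16.8%). Nfil3, which encodes the repressor that binds the same sites as DBP, was at 7.35 and 7.43 CPM in WT and 31.1 and 48.4 CPM in the mutants (log2 fold change 2.43, edgeR adjusted p = 0.00515). Dbp was at 136 and 115 CPM in WT and 32.4 and 1.02 CPM in the mutants (log2 fold change -2.91, edgeR adjusted p = 0.216), and its relative Tef at 179 and 146 against 92.0 and 35.0 CPM (-1.35, 0.138). Mutant replicate 1 was above replicate 2 in Dbp and Tef and below it in Nfil3, and it was the mutant liver with more Cyp2a4 and Cyp2a5. In the wild type Dbp differed little while Cyp2a4 differed 5.40-fold. Each of these comparisons rests on 1 pair of livers. Hlf, the other D-box factor gene of the list, was at 66.3 and 54.3 CPM in WT and 54.8 and 50.3 CPM in the mutants. The genotypes overlapped in Hlf (log2 fold change -0.20, edgeR adjusted p = 0.669). Of 13 core clock genes, 4 rose and 3 fell by edgeR, among them Arntl (3.97) and Ciart (-5.16) on the log2 scale. At an unadjusted p under 0.05 were 11 of the 13, 4 higher and 7 lower, against 16.8% of all genes. As the hour of collection is not given, a difference in hour between the groups cannot be told apart from genotype, for Cyp2a22 too. The part of the clock and D-box factor genes in the Cyp2a levels was not tested.

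Among 12 genes of growth hormone signalling and other control of sex differences in liver, 3 rose and 0 fell (median log2 fold change 0.37), against 1.39% and 1.47% of all genes. Among the 3 were Prlr and Stat5a. The prolactin receptor gene Prlr was at 108 and 164 CPM in WT against 527 and 621 CPM in the mutants, and Stat5a at 8.56 and 7.20 against 15.2 and 21.7 CPM. The call of Stat5a was lost without WT replicate 2 (log2 fold change 1.10) or mutant replicate 2 (0.95). It was also lost by limma-voom (adjusted p = 0.0619), on either FPKM scale and with the replicate block (edgeR adjusted p = 0.0664). Of the 12 genes, 5 differed more than 3-fold between the WT livers, a limit chosen after the values were seen: 4 were higher in replicate 2, as Cyp2a4 was, and 1 was higher in replicate 1. The other 7 differed less, 4 of them higher in replicate 1 and 3 in replicate 2. The share of all genes beyond this limit was not counted. Over 7389 genes with a mean of at least 10 CPM, the median log2 difference between the WT livers was 0.21. Bcl6, a repressor known for higher levels in male liver, was at 77.5 CPM in WT replicate 1 and 11.2 in replicate 2. Cux2, a factor known for higher levels in female liver, was at 0.521 and 8.14 CPM, and the STAT5 targets Socs2 and Cish at 9.32 and 63.0 CPM and at 5.03 and 18.2 CPM. Onecut1, a liver transcription factor gene, was at 3.18 and 11.2 CPM. In the mutant livers, where Cyp2a4 was higher in replicate 1, Cux2 was too, at 46.8 and 15.0 CPM. Socs2 (34.3 and 62.4 CPM), Cish (9.92 and 11.3), Onecut1 (3.13 and 14.9) and Bcl6 (21.2 and 22.1) were higher in mutant replicate 2. WT replicate 2 had 0.284 CPM of Xist and 52.4 CPM of Ddx3y, and replicate 1 had 0.347 and 67.6 CPM. The part of these genes in the difference of Cyp2a4 between the WT livers was not tested.

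Electron donors and haem synthesis, on which P450 activity depends, showed no calls by edgeR: of 13 genes 0 rose and 0 fell. The median log2 fold change was 0.05. At an unadjusted p under 0.05 were 2 members (Cyb5r3 and Alas1), against 16.8% of all genes. DESeq2 called 2 lower, against 3.01% of all genes. Por was at 314 and 437 CPM in WT and 354 and 426 CPM in the mutants. Alas1, the rate-limiting enzyme of haem synthesis, was at 339 and 852 CPM in WT and 139 and 214 CPM in the mutants (log2 fold change -1.75, edgeR adjusted p = 0.0847), and was higher in WT replicate 2, as Cyp2a4 was. Of 8 genes of haem breakdown and bilirubin clearance 0 were called by edgeR and 1 by DESeq2 (all genes: 2.86% and 5.95%). At an unadjusted p under 0.05 were 2 of them, against 16.8% of all genes. By edgeR Ugt1a1, which conjugates bilirubin, came nearest (log2 fold change 1.14, edgeR adjusted p = 0.0523).

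For the zones of the lobule, the shares over all genes were 1.39% higher and 1.47% lower by edgeR. They were 2.94% higher by DESeq2 and 16.8% at an unadjusted p under 0.05. Of 11 pericentral genes 2 rose and 0 fell (median log2 fold change 0.86), Oat, at 158 and 84.4 against 352 and 695 CPM, and Axin2, at 2.72 and 1.51 against 6.84 and 15.5 CPM. The count was 5 by DESeq2, but 0 with the replicate block and on either FPKM scale, and 6 of the 11 were at an unadjusted p under 0.05. The calls of Oat and Axin2 were lost without mutant replicate 2 (edgeR adjusted p = 0.0877 and 0.148), where Axin2 was at 1.70 on the log2 scale against 2.41. The main pericentral P450 genes Cyp2e1 (log2 fold change 0.98, edgeR adjusted p = 0.158) and Cyp1a2 (-0.02, 0.988) were not called. Of 10 periportal genes 0 rose and 1, the cadherin gene Cdh1, fell (log2 fold change -1.75). In whole liver, fewer cells of a type and less RNA per cell cannot be told apart, which also holds for the zone of the lobule in which Cyp2a5 is made.

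Markers of other liver cells were also followed, since the samples are whole tissue. By edgeR 0 of 6 Kupffer cell markers, 0 of 5 endothelial, 0 of 5 blood cell and 0 of 5 bile duct markers were called. Single markers of these lists came near it, with 4 Kupffer, 3 endothelial, 4 blood and 1 bile duct marker at an unadjusted p under 0.05, against 16.8% of all genes. DESeq2 called 1, 0, 3 and 0 of them higher, against 2.94% of all genes. Of the 3 endothelial markers at an unadjusted p under 0.05, 2 were higher and 1 was lower. The lower one was Lyve1, at 3.41 and 10.8 CPM in WT and 3.40 and 2.61 CPM in the mutants (log2 fold change -1.25). The summed level of the Kupffer cell markers was 144 to 162 CPM in WT and 194 to 290 CPM in the mutants, and that of the endothelial markers 47.1 to 66.0 against 73.6 to 83.1 CPM. The blood cell markers summed to 334 to 497 against 666 to 748 CPM and the bile duct markers to 54.3 to 70.3 against 32.0 to 59.8 CPM. Of 5 stellate cell markers Dcn rose (log2 fold change 1.36) and Col1a1 fell (-2.48), against 1.39% and 1.47% of all genes by edgeR. The list summed to 96.0 to 157 against 197 to 255 CPM. Dcn alone was at 52.4 and 71.6 CPM in WT and 183 and 135 CPM in the mutants. The call of Dcn was lost without mutant replicate 1 (edgeR adjusted p = 0.0747) and that of Col1a1 without mutant replicate 2 (0.105), and Col1a1 was at -1.57 without WT replicate 2. The sums of all these lists except the bile duct list were thus higher in both mutant livers, as Cyp2a22 and Cyp2a5 were, while that of the hepatocyte markers was lower. The sums do not speak for each marker, as Lyve1 and Col1a1 were lower in both mutant livers. Of all single genes tested, 48.6% did not overlap between genotypes in either direction. The part of these cell types in the Cyp2a levels was not tested.

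The genes whose profile over the 4 livers was nearest to each member, by Euclidean distance between centred log2 CPM among 7389 genes, are given as a description. Nearest to Cyp2a22 were Gstt3, a glutathione transferase gene (distance 0.249), Tmem98 (0.283) and Prlr (0.325). Gstt3 was at 23.8 and 44.4 CPM in WT and 108 and 107 CPM in the mutants, and like Cyp2a22 was higher in WT replicate 2 than in replicate 1. Nearest to Cyp2a4 were the macrophage scavenger receptor gene Marco (0.432), Angptl8, which encodes a feeding-induced inhibitor of lipoprotein lipase (0.828), and the leptin receptor gene Lepr (0.836). Marco was at 5.09 and 20.6 CPM in WT and 14.2 and 6.91 CPM in the mutants, with the WT livers at the ends, as for Cyp2a4. Nearest to Cyp2a5 were Paxx (0.185), Ggt6 (0.225) and Nrn1 (0.288), and nearest to Cyp2a12 were Tmem192 (0.035), Rab5if (0.040) and Ube2w (0.040), genes near level in all livers. Between the near copies the distances were larger, 1.86 for Cyp2a4 with Cyp2a5 and 1.87 for Cyp2a12 with Cyp2a22, and the smallest within the family was 1.14, between Cyp2a5 and Cyp2a12.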

How the data were processed

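Per the submitters' processing notes, HISAT, Bowtie2 and RSEM were run on mouse build mm10; their versions, order, read length and strand setting are not stated in any source used here. The deposited tables of the authors hold expected counts, not normalized, and FPKM, scaled to length and depth, per the file headers. Expected counts were summed per Entrez gene, rounded and tested genome-wide with edgeR 4.0.16 (R 4.3.3): TMM factors, filterByExpr, quasi-likelihood F test with genotype as the only term, Benjamini-Hochberg adjustment over 12837 genes, threshold 0.05. Sums of members replaced their rows in the same fit. Names came from RefSeq GRCm38.p6 (17502 of 17543 genes matched). Alternatives used DESeq2 1.42.0, limma 3.58.1 (voom, or log2 of FPKM plus 1 or 0.1 where a genotype's mean was at least 1 FPKM), other scalings and filters, a replicate block and leaving out each liver. Sequences were compared in Python 3.11.15 with Biopython 1.88. Samples came from the labels. Replicate counts differed beyond sampling noise (chi-square per gene 88.5 and 48.4), so each liver counted once.

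The members and the gene lists were chosen with earlier results of these data known. Named are the 4 members, up to 3 members of each list with the smallest p, and the 3 genes nearest in pattern to each member; Ezh2, Por, Hnf4a, Cyp1a2, Cyp2e1, Socs2, Bcl6, Cux2, Cish, Onecut1 and some further genes of the lists were picked with their values in view. The sum of Cyp2a12 with Cyp2a22 and the promoter motifs were chosen after seeing the data. For 1 gene of the growth hormone list the values are not reported here.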

Additional observations from a re-analysis of the deposited data

How the results depend on the processing

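The rise of Cyp2a22 kept its direction and its call under all 14 other settings, with log2 fold changes from 1.57 to 2.23 without a liver and edgeR, limma or DESeq2 adjusted p values of at most 0.0416. Cyp2a5, Cyp2a12, Cyp2a4 and the sums were called under none of them. Cyp2a4, at -0.17 on the log2 scale, changed sign to 0.16 with limma-voom, to 0.22 on log2(FPKM + 1) and log2(FPKM + 0.1) (0.219 and 0.222) and to 0.14 with the replicate block, and ranged from -0.998 to 1.51 when a liver was left out. Without a liver, Cyp2a12 ranged from -0.009 to 0.35, Cyp2a4 and Cyp2a5 summed from -0.47 to 1.25 and the family from -0.15 to 0.68. The cause was not tested. Livers of the same replicate number showed no shared shift across genes (correlation of same-numbered deviations -0.0027). This value cannot show whether those livers were handled together. The replicate block gave 166 genes higher and 181 lower against 178 and 189 without it. Higher and lower genes numbered 378 and 386 with DESeq2, 94 and 69 on log2(FPKM + 1), 91 and 70 on log2(FPKM + 0.1), 410 and 419 without a filter, and 117 to 327 and 94 to 393 without a liver. Total-count scaling gave 188 higher and 124 lower, 60.3% higher against 48.5%. Of 504 counts of called list members under other settings, 412 stayed within 1.5 times the value given. These 412 include counts of 0 that stayed 0, so they say little about the other counts. Without a liver, the genotype with 1 liver is assumed to vary as the other does. With 2 livers a genotype and an interval of -1.82 to 1.48, these data leave the difference of Cyp2a4 between genotypes unresolved.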
